A study of Mus musculus with 12 samples.

Results

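Mitotic spindle and kinetochore genes are a set of 47 genes whose products build the spindle, attach and condense chromosomes, time their separation and divide the cell. The genes were listed by name, and every probe set that the platform annotation assigns to exactly 1 of them was taken, with older symbols of the same gene counted. That gave 80 probe sets for 45 of the 12393 genes on the array, and 23 of the 45 genes had more than 1 probe set. Cdca8 and Espl1 had no probe set of their own and are not analysed here. Each gene was read from the 1 probe set that was brightest on average (log2 scale), and 42 of the 45 genes passed the filter on low signal. Cdc25c, Cenpe and Cenph did not pass it.

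The study profiled muscle satellite cells, stem cells that lie beside the fibres, on Affymetrix Mouse 430A arrays, with 3 groups of 4 arrays each. All cells came from hind limb muscle of C57BL/6J mice of 8 to 12 weeks. Activated satellite cells (ASC) were cells bound by SM/C-2.6, a monoclonal antibody against mouse satellite cells, that were grown for 4 days in DMEM with 20% fetal calf serum and 2.5 ng/ml basic fibroblast growth factor. More than 99% of them were MyoD-positive by the labels. Quiescent satellite cells (QSC) were the same antibody-positive fraction taken directly after the sort, with more than 97% Pax7-positive cells. Non-myogenic cells (NMC) bound neither SM/C-2.6 nor antibody to the leukocyte antigen CD45, were also taken directly after the sort, and held under 1% myogenic cells. ASC thus differ from both fresh groups in state, in culture time and in medium, and these cannot be told apart. Whether the 4 arrays of a group stem from separate animals or sorts is not labelled. The p-values therefore reflect the spread from array to array, which may be technical.

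Mitosis starts when the cyclin B kinase is switched on. Condensins and topoisomerase II then compact and untangle the chromosomes, kinesins and Aurora kinases build a bipolar spindle, and kinetochores tie each centromere to microtubules. The spindle checkpoint holds the cell until every kinetochore is attached, after which the anaphase-promoting complex (APC/C) releases the chromosomes and the central spindle directs cytokinesis. In adult muscle most satellite cells lie outside the cell cycle until injury or culture brings them into it, and transcripts of these genes are known to be made mainly from S phase to mitosis.

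Values are array signals scaled to a common trimmed mean of 235.14, and fold changes are differences of log2(signal + 14.696), which understates the change of low signals. Before scaling the trimmed means of the 12 arrays lay between 160 and 502. The label of each group was checked against cell type markers. Pax7 averaged 90.2 in ASC, 1071 in QSC and 4.07 in NMC, and Myod1 averaged 4629 in ASC, 1277 in QSC and 36.2 in NMC. All 7 satellite cell markers listed were called higher in QSC than in NMC, and 6 were lower in ASC than in QSC. Itga7 was alike in ASC and QSC (1227 and 1268.5). Calcr was alike in ASC and NMC (9.18 and 9.22), and Chodl was lower in ASC (7.49) than in NMC (520). Of the 3 myoblast markers, 2 were called higher in ASC than in QSC, and Des was alike there (1350.5 and 1341). The 6 endothelial markers summed to 59.6 to 119 in ASC, 2471 to 4534 in QSC and 10640 to 13102 in NMC. The 5 fibroblast markers summed to 1135 to 1343 in ASC, 6451 to 14592 in QSC and 23352 to 44030 in NMC, and the 5 markers of pericytes and smooth muscle to 2141 to 4719 in ASC, 4170 to 7188 in QSC and 8908 to 17661 in NMC. In ASC the fibroblast sum came mostly from Col3a1 (mean 1185), while the other markers of that list averaged 3.69 to 27.1. The ASC sum for pericytes and smooth muscle came mostly from Acta2 (mean 2963), while the others averaged 7.10 to 82.4. The 5 myofibre markers summed to 612.95 to 7249.8 in ASC, 1527 to 5162 in QSC and 5899.6 to 19420 in NMC. The part of these cell types in the comparisons was not tested. ASC 1 and ASC 2, both labelled with the small-sample kit, stood apart from ASC 3 and ASC 4, labelled with the two-cycle kit: the 4 markers of differentiating myocytes summed to 8013, 5720, 1408 and 1434. For the ASC comparisons, the counts of called members and the median change over all tested members are therefore given with and without ASC 1 and ASC 2. Single genes are given in both ways where their change moved by more than 0.5. Values of sub-complexes, of probe sets and of the fit without a filter include all 4 ASC arrays. The ratio of the 3' to the 5' Gapdh control probe sets, a measure of RNA and labelling quality, was 1.75 ± 0.41 in ASC, 4.02 ± 0.97 in QSC and 3.87 ± 0.92 in NMC (SD, n = 4 each). The part of this ratio in the ASC comparisons was not tested.

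In ASC, 41 of the 42 tested mitotic genes were higher than in QSC and 1, Pttg1, was lower, at an adjusted p under 0.05 in limma. Among all 7960 genes tested, 31.8% were called higher in ASC and 38.2% lower. By at least 2-fold, 40 members were higher, against 15.9% of all genes tested. The median change of the members was 2.87 on the log2 scale, against -0.11 for all genes tested. All 4 ASC arrays lay above all 4 QSC arrays for the same count of 41 genes, and this was so for 24.8% of all genes tested. The QSC mean was 12.5% of the ASC mean in the median member, and it was under 10% for 17 of the 42. Without ASC 1 and ASC 2 the counts were again 41 higher and 1 lower, against 28.3% and 36.1% of all genes tested. By at least 2-fold 40 were then higher, against 16.5%, and 41 lay higher in every array, against 31.1%. The median was then 2.96, against -0.17 for all genes tested. The change of 3 members then moved by more than 0.5, to 4.46 for Aurka, 2.62 for Racgap1 and 1.96 for Ect2. In these bulk samples a smaller share of dividing cells and less RNA per cell cannot be told apart.

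**Figure D1:**
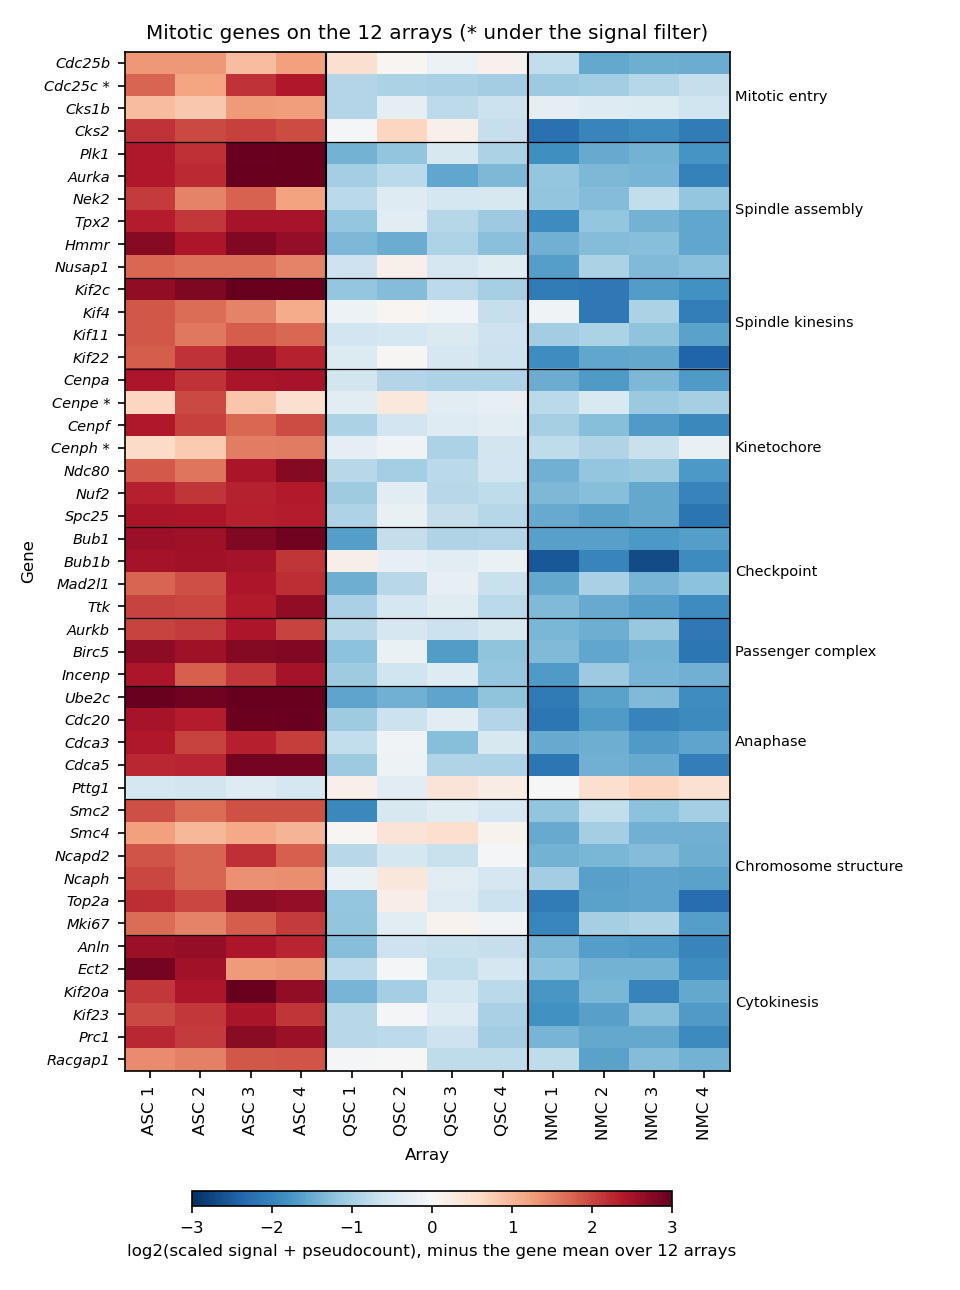
Signal of the 45 mitotic genes on each array, as log2(scaled signal + 14.696) minus the gene's mean over the 12 arrays, with the genes in order of sub-complex, and with colours that saturate at 3 in either direction. The 4 ASC arrays stand above the 8 fresh arrays in every row but Pttg1, and most NMC cells of the map are a deeper blue than the QSC cells beside them.

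The promoters of the listed genes were searched for short sequences they share. Of the 47 listed genes, 41 had a promoter in the RefSeq table (GRCm38.p6), and Cdc25c, Tpx2, Aurkb, Incenp, Smc4 and Kif20a had none there. Each promoter was taken from 250 bases before to 50 bases after the start listed first for its gene. Any other annotated start was not searched. The 41 promoters belong to 36 of the 41 genes called higher in ASC than in QSC, to Pttg1, to Cenpe and Cenph, which were under the filter, and to Cdca8 and Espl1. On both strands, the cell cycle homology region TTTGAA was present in 29 of the 41 member promoters (70.7%). It was in 18.1% of all 27025 promoters, 11.6% of the 6491 promoters of tested genes and 34.0% of the 103 promoters of other mitotic genes. Of the 36 promoters of members called higher in ASC, 27 held it, against 14.1% of the 2064 promoters of other genes called higher there. TTTGAA or its variant TTTAAA, which reads the same on both strands, was present in 75.6% of members and 27.8% of all promoters. The other mitotic genes had either form in 39.8%. CCAAT was present in 31 member promoters (75.6%), against 37.9% of all promoters, 38.5% of those of tested genes and 53.4% of those of the other mitotic genes. A member promoter held CCAAT together with TTTGAA or TTTAAA in 63.4% of cases, any promoter in 10.9%, and a promoter of the other mitotic genes in 27.2%. The E2F forms GCGCGAA and GCGGGAA were in 2 of the 41 (4.88%), against 6.06% of all promoters, 11.5% of those of tested genes and 21.4% of those of the other mitotic genes. TATAAA was in 1, that of Kif2c (2.44%), against 14.2% of all promoters, 7.07% of those of tested genes and 4.85% of those of the other mitotic genes. After these counts had been seen, 2 narrower ones were added. TTTGAA or TTTAAA within 50 bases of the start was present in 65.9% of members, 8.24% of all promoters and 31.1% of those of the other mitotic genes. At least 2 CCAAT were present in 48.8%, 12.2% and 28.2% of these. A match describes the letters and not a bound site.

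Promoters are shown for the members with the largest ASC change of their sub-complex that matched a motif in this window, and for Pttg1, the 1 member that was lower in ASC. Each line is the 120 bases before the start, 5' to 3' along the gene, with capitals on the motifs: CCAAT or, for the other strand, ATTGG stands for the CCAAT box, TTTGAA or, for the other strand, TTCAAA for the homology region, and TTTAAA for its variant.
Ube2c: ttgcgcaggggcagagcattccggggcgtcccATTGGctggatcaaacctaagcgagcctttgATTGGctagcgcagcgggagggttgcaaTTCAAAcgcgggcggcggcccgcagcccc
Top2a: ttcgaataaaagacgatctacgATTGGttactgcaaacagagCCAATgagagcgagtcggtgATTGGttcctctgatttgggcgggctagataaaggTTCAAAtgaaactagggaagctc
Cenpa: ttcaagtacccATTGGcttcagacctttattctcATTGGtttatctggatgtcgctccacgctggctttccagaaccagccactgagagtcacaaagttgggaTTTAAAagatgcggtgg
Hmmr: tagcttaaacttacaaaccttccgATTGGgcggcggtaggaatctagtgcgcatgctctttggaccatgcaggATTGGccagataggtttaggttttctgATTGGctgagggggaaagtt
Bub1: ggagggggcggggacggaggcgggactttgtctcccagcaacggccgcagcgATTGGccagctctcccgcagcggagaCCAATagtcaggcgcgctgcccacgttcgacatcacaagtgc
Cks2: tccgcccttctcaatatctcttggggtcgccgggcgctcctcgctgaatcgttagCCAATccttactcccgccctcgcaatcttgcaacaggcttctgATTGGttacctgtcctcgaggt
Kif2c: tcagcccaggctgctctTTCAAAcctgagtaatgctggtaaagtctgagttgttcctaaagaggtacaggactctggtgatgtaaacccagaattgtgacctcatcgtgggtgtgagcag
Pttg1: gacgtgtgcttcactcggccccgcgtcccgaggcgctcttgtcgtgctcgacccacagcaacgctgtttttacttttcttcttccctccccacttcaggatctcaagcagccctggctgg
These stretches lie at chr2:164769809-164769928 (Ube2c, plus strand), chr11:99024190-99024309 (Top2a, minus), chr5:30666766-30666885 (Cenpa, plus), chr11:40733438-40733557 (Hmmr, minus), chr2:127831860-127831979 (Bub1, minus), chr13:51645112-51645231 (Cks2, plus), chr4:117178773-117178892 (Kif2c, minus) and chr11:43425982-43426101 (Pttg1, minus). In Ube2c a TTCAAA begins at -29 and an ATTGG at -57 and -88, counting -1 as the base before the start. In Top2a a TTCAAA begins at -23 with 3 CCAAT or ATTGG at -58, -78 and -98. Cenpa carries TTTAAA at -17 with a pair of ATTGG upstream of it, and its TTTGAA lies after the start, at 17. Hmmr shows ATTGG at -20, -47 and -96 and has its TTTGAA at 9. Bub1 and Cks2 carried CCAAT but neither TTTGAA nor TTTAAA, and Kif2c carried no CCAAT. At the 1 start searched per gene, the Pttg1 promoter held none of the motifs. Neither did 4 others, those of Mad2l1, Ncaph, Nuf2 and Nusap1, which were all higher in ASC.

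Of the genes of mitotic entry, Cks1b, Cks2 and Cdc25b were tested. Cks2, a small subunit that docks cyclin-dependent kinases onto their substrates, had a signal of 1944, 1695, 1789.5 and 1670.5 in ASC, 403, 669, 468 and 257 in QSC, and 78.2, 95.6, 103 and 87.9 in NMC. The 3 groups did not overlap and formed 2 steps of like size. The log2 change was 2.02 ± 0.22 for ASC over QSC (SE, limma adjusted p = 2.09e-06) and 2.02 ± 0.22 for QSC over NMC (adjusted p = 5.39e-06). Cdc25b, a phosphatase that activates the cyclin kinase, had 512 to 672 in ASC, 369, 276, 229 and 287 in QSC, and 151, 80.7, 85.8 and 83.5 in NMC. Its groups did not overlap either, and the steps were 1.07 ± 0.15 (ASC over QSC) and 1.33 ± 0.16 (QSC over NMC, adjusted p = 1.12e-05). Cks1b, the paralog of Cks2 and a cofactor in the breakdown of the inhibitor p27, had 2901 to 4021 in ASC, 885 to 1344 in QSC and 1081 to 1336 in NMC. ASC lay 1.72 ± 0.17 above QSC, while QSC and NMC overlapped (-0.21, adjusted p = 0.319). Cdc25c, under the filter, had 60.4 to 159 in ASC, 1.36 to 3.37 in QSC and 0.777 to 5.89 in NMC.

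The 6 genes of spindle assembly had a median change of 3.43 for ASC over QSC and 0.61 for QSC over NMC, and 6 and 4 of them were called higher in these comparisons. Hmmr, which binds microtubules and helps focus spindle poles, led them over all 12 arrays with 1019, 822, 1059 and 954 in ASC against 46.4, 41.0, 66.8 and 50.6 in QSC, a log2 change of 3.90 ± 0.14 (SE, limma adjusted p = 9.59e-11). Its NMC arrays, at 42.9, 48.5, 49.2 and 37.7, overlapped those of QSC, which exceeded them by 0.19 (adjusted p = 0.291). Aurka, the kinase of the spindle poles, likewise separated ASC from the fresh cells and did not pass between these: it had 641 to 1116 in ASC, 32.4 to 64.8 in QSC and 19.2 to 47.1 in NMC, with 3.86 ± 0.24 for ASC over QSC (4.46 without ASC 1 and ASC 2, above the 3.86 of Hmmr there) and 0.29 for QSC over NMC (adjusted p = 0.345).

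Plk1, the polo kinase that drives entry and spindle formation, had 669 to 1194 in ASC, 41.5, 51.5, 92.8 and 63.1 in QSC, and 27.2, 38.2, 41.9 and 29.4 in NMC. Tpx2, which activates Aurka on the spindle, had 583 to 753 in ASC, 47.3, 95.0, 60.8 and 50.2 in QSC, and 22.5, 47.1, 36.7 and 32.1 in NMC. QSC exceeded NMC by 0.76 for Plk1 and 0.68 for Tpx2, and for Plk1 1 QSC array fell within the NMC range. Nusap1, a microtubule bundler at chromosomes, had 278 to 329.9 in ASC, 52.8, 101, 58.8 and 66.1 in QSC, and 18.2, 39.1, 27.0 and 28.7 in NMC. Nek2, a centrosome kinase, had 155 to 303 in ASC, 27.7, 41.8, 37.1 and 38.5 in QSC, and 17.8, 15.4, 29.9 and 18.3 in NMC. Nusap1 was apart in all groups, whereas the fresh groups overlapped for Nek2, which had the highest adjusted p of the 35 genes called for QSC over NMC (0.54, adjusted p = 0.0384).

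All 4 spindle kinesins were called higher in both comparisons. Kif2c, which takes microtubules apart at the kinetochore, had 710.1, 781, 1177 and 1013 in ASC, 36.8, 32.1, 52.5 and 42.8 in QSC, and 12.2, 11.5, 21.1 and 17.9 in NMC. The groups did not overlap, with 4.05 ± 0.14 for ASC over QSC (limma adjusted p = 7.86e-11) and 0.97 ± 0.15 for QSC over NMC (adjusted p = 8.97e-05). Kif22, a chromosome-arm motor, had 1254 to 2101 in ASC, 254, 353, 239 and 216 in QSC, and 83.4, 108, 109 and 53.4 in NMC. Kif11, the motor that pushes the poles apart, had 241 to 296 in ASC, 42.5, 44.8, 48.7 and 40.4 in QSC, and 26.5, 29.3, 22.2 and 13.5 in NMC. Both stayed apart in every group, by 2.60 (Kif22) and 2.29 (Kif11) for ASC over QSC and by 1.47 and 0.66 for QSC over NMC. Kif4, a chromokinesin, had 157 to 275 in ASC, 56.5, 68.3, 59.6 and 34.4 in QSC, and 59.5, 3.31, 26.5 and 4.09 in NMC. Its NMC arrays spread widely and overlapped those of QSC (0.91, adjusted p = 0.022).

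The 5 tested kinetochore genes were higher in ASC than in QSC within a narrow range, from 2.60 to 3.20, and higher in QSC than in NMC from 0.66 to 1.00. Cenpa, the histone variant that marks centromeres, had 969, 812, 989 and 1008 in ASC, 111, 85.6, 81.2 and 81.1 in QSC, and 50.7, 41.6, 57.8 and 41.6 in NMC. No array of one group reached another, and the changes were 3.20 ± 0.15 (ASC over QSC, limma adjusted p = 7.74e-10) and 0.73 ± 0.15 (QSC over NMC, adjusted p = 0.00119). The NDC80 complex, the rod that grips microtubules, was represented by Ndc80, Nuf2 and Spc25. Ndc80 had 159 to 368 in ASC, 17.4, 13.5, 17.6 and 23.4 in QSC, and 6.32, 10.6, 11.7 and 2.60 in NMC. Nuf2 had 488 to 573 in ASC, 39.7, 74.4, 48.4 and 52.0 in QSC, and 29.6, 32.0, 24.4 and 13.6 in NMC. Spc25 had 721 to 784 in ASC, 62.4, 110.2, 74.6 and 65.7 in QSC, and 36.0, 33.5, 35.1 and 16.97 in NMC. The 3 subunits changed alike, by 2.97, 3.04 and 3.06 for ASC over QSC and by 0.66, 0.77 and 1.00 for QSC over NMC, and none had overlapping groups. Cenpf, a large outer kinetochore protein, had 563 to 903 in ASC, 75.6, 102, 118 and 124 in QSC, and 72.1, 57.2, 38.4 and 30.5 in NMC, where the lowest QSC and the highest NMC array almost met. Cenpe, a kinetochore motor, and Cenph, an inner kinetochore protein, were under the filter, with 31.7 to 118 and 41.2 to 95.4 in ASC, 11.5 to 26.8 and 4.69 to 19.8 in QSC, and 0.620 to 9.62 and 5.31 to 17.4 in NMC.

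Bub1, Bub1b, Mad2l1 and Ttk stood for the spindle checkpoint, and all 4 were called higher in both comparisons. Bub1, a kinase that recruits the checkpoint to kinetochores, had 447, 438, 516 and 566 in ASC, 9.92, 33.0, 27.0 and 27.9 in QSC, and 10.6, 10.3, 8.80 and 10.2 in NMC. ASC exceeded QSC by 3.73 ± 0.18 (limma adjusted p = 1.14e-09), and QSC exceeded NMC by 0.67 ± 0.18 (adjusted p = 0.0073) although QSC 1 lay within the NMC range. Bub1b, the pseudokinase BubR1 of the inhibitory checkpoint complex, had the largest difference between the fresh cells with the settings used, although its NMC signals lie near the pseudocount. It had 771, 785, 777 and 600.2 in ASC, 143, 104, 96.6 and 106 in QSC, and 9.43, 20.6, 7.07 and 23.3 in NMC. The NMC mean was 13.4% of the QSC mean and 2.06% of the ASC mean, and the log2 change was 2.56 ± 0.20 for ASC over QSC and 2.11 ± 0.20 for QSC over NMC (adjusted p = 1.48e-06). With a pseudocount of 1/4 of the trimmed mean that value was 1.19, below the 1.66 of Cks2 and the 1.51 of Smc4, and Cks2 also exceeded Bub1b with quantile normalization and without QSC 1, QSC 4 or NMC 3. Mad2l1, which binds and restrains Cdc20, had 902 to 1445 in ASC, 84.8, 139, 216 and 157 in QSC, and 78.7, 125, 89.3 and 102 in NMC. Ttk, the kinase that starts checkpoint signalling, had 274 to 434 in ASC, 21.5, 34.8, 40.9 and 25.9 in QSC, and 13.7, 10.5, 7.93 and 4.79 in NMC. QSC and NMC overlapped for Mad2l1 (0.62) and not for Ttk (0.96).

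The chromosomal passenger complex corrects faulty attachments, and its 3 tested subunits were all higher in ASC. Birc5, or survivin, which brings the complex to centromeres, had 1107, 1000.4, 1156 and 1171 in ASC, 59.7, 135, 39.6 and 60.7 in QSC, and 54.1, 44.6, 50.6 and 24.0 in NMC. ASC stood 3.77 ± 0.25 above QSC (limma adjusted p = 2.14e-08), while QSC and NMC overlapped, with 0.46 and an adjusted p of 0.146. Aurkb, its kinase, had 343 to 461 in ASC, 35.3, 47.5, 42.2 and 48.3 in QSC, and 19.5, 17.1, 25.5 and 5.19 in NMC. Incenp, its scaffold, had 1149 to 1858 in ASC, 145, 207, 242 and 134 in QSC, and 88.7, 143, 112 and 108 in NMC. QSC exceeded NMC for Aurkb by 0.93 without overlap and for Incenp by 0.65 with overlap (adjusted p = 0.0191).

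The genes of anaphase and cohesion held the largest and the smallest change of the 42. Ube2c, the ubiquitin-conjugating enzyme of the APC/C, had 1640.1, 1382, 1973 and 1845 in ASC, 48.1, 54.3, 48.4 and 67.5 in QSC, and 28.3, 47.0, 60.9 and 37.3 in NMC. ASC exceeded QSC by 4.63 ± 0.16 (limma adjusted p = 5.19e-11), the QSC mean being 3.19% of the ASC mean, and the fresh groups overlapped (0.36, adjusted p = 0.0764). Cdc20, the APC/C activator that the checkpoint holds back, had 1758 to 2679 in ASC, 151, 206, 260.0 and 174 in QSC, and 62.2, 91.6, 71.9 and 76.9 in NMC. Cdca5, or sororin, which protects cohesion, had 836 to 1294 in ASC, 69.2, 145, 80.2 and 78.6 in QSC, and 25.1, 50.5, 48.2 and 27.9 in NMC. Cdca3, a trigger of mitotic entry that is itself degraded through the APC/C, had 561 to 729 in ASC, 69.6, 115, 43.1 and 85.5 in QSC, and 34.6, 36.4, 28.3 and 32.4 in NMC. The groups stayed apart for all 3 of these genes, with QSC over NMC at 1.31 for Cdc20, 1.08 for Cdca5 and 0.86 for Cdca3.

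Pttg1, or securin, the inhibitor of separase, went the other way. It had 2169, 2144, 2395 and 2174 in ASC, 3514, 2476, 4089.7 and 3698 in QSC, and 3182, 4369, 4906 and 4358 in NMC. All 4 ASC arrays lay below all fresh arrays. The log2 change was -0.61 ± 0.15 for ASC over QSC (limma adjusted p = 0.00219) and -0.82 ± 0.15 for ASC over NMC (adjusted p = 0.000222), and QSC and NMC overlapped (-0.21, adjusted p = 0.247). Another probe set gave -0.47 for ASC over QSC (adjusted p = 0.0562 over all probe sets) and the third, at 5.69 to 44.9 in ASC and 69.7 to 303 in QSC, gave -1.71 (adjusted p = 2e-04). The call rests on the scaling: without scaling the change was -0.30 (adjusted p = 0.198), with arrays centred on their medians -0.20 (adjusted p = 0.260), and on the small-sample arrays alone -0.45 (adjusted p = 0.160).

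**Figure D2:**
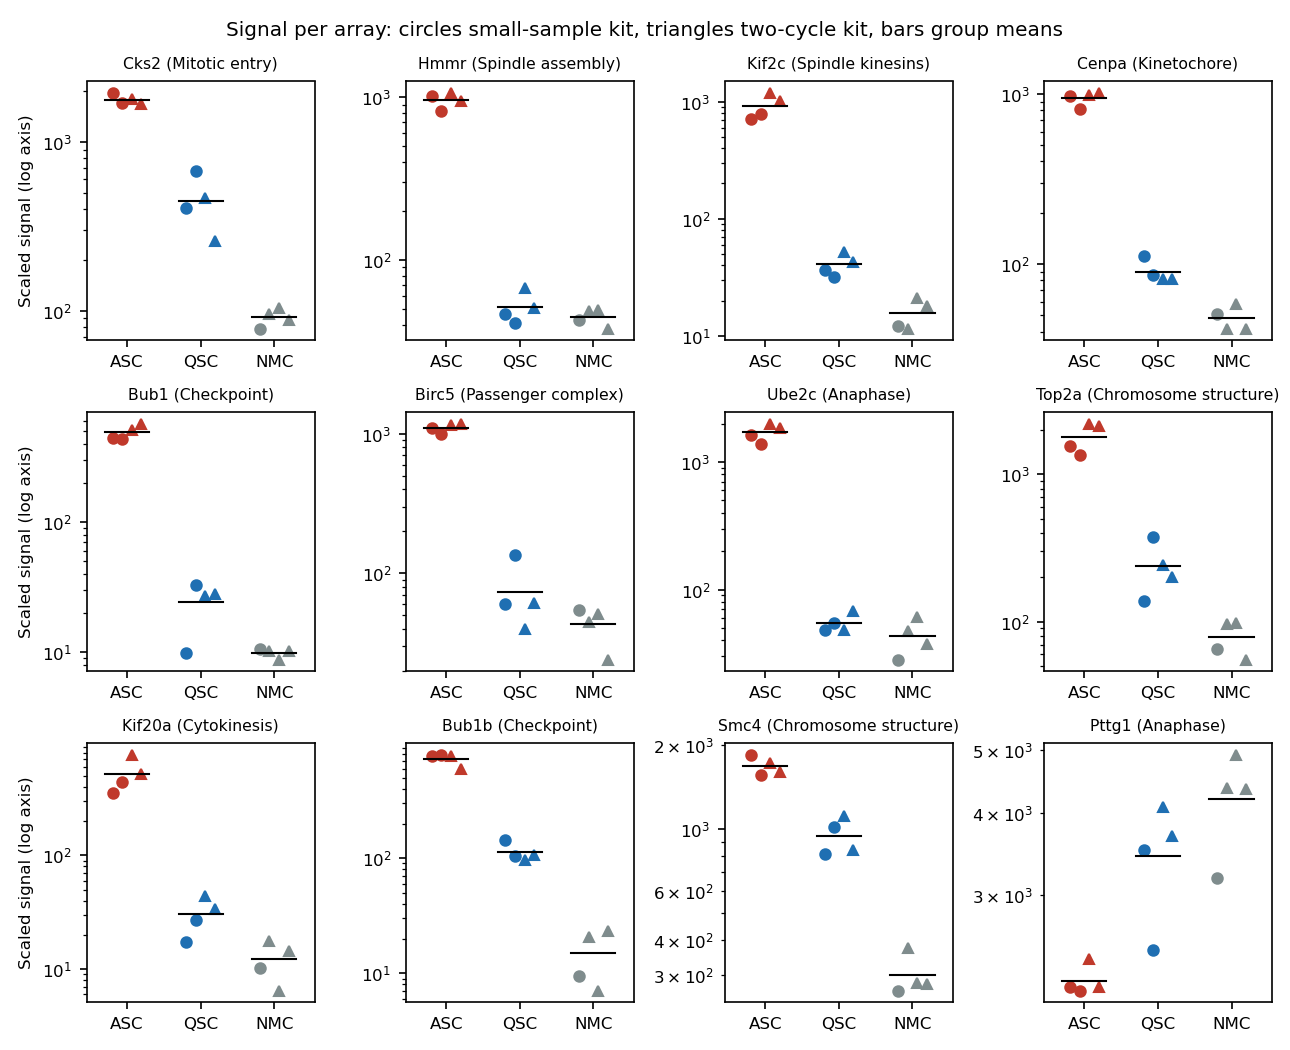
Scaled signal on a log axis, with its own range in each panel, for the member with the largest ASC change of each sub-complex and for Bub1b, Smc4 and Pttg1, by group, with circles for the small-sample kit, triangles for the two-cycle kit and bars for group means. ASC lie above the fresh arrays in every panel but Pttg1, and Cks2, Bub1b and Smc4 show QSC well above NMC, with Bub1b at 96.6 to 143 in QSC and 7.07 to 23.3 in NMC.

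Chromosome structure was the sub-complex with the smallest gap between ASC and QSC after mitotic entry (median 2.28), and its median of 1.16 for QSC over NMC was second to mitotic entry (1.33). Smc4, the ATPase core of condensin, had 1841, 1560.0, 1724 and 1598 in ASC, 814, 1022, 1119 and 840.0 in QSC, and 264, 375, 280.3 and 279 in NMC. The groups did not overlap, and the larger step was the one between the fresh groups: 0.82 ± 0.15 for ASC over QSC (limma adjusted p = 0.00029) and 1.64 ± 0.16 for QSC over NMC (adjusted p = 1.46e-06). The QSC mean of Smc4 was 56.4% of its ASC mean, the highest share of the 41 genes that were higher in ASC. Its partner Smc2 had 899 to 1078 in ASC, 60.6, 191, 206 and 187 in QSC, and 110.1, 156, 107 and 127 in NMC. It separated ASC by 2.68 ± 0.26 and did not pass between the fresh groups (0.32, adjusted p = 0.328), where QSC 1 lay below all NMC arrays and the other QSC arrays above them.

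Ncapd2, a regulatory subunit of condensin I, had 822 to 1130.2 in ASC, 127, 159.5, 145 and 229 in QSC, and 79.5, 82.8, 88.2 and 76.2 in NMC. Ncaph, the kleisin of condensin I, had 547 to 847 in ASC, 174, 260.2, 158 and 137 in QSC, and 90.6, 54.9, 57.9 and 56.4 in NMC. Both kept the 3 groups apart, with 2.41 and 1.80 for ASC over QSC and 0.92 and 1.16 for QSC over NMC. Top2a, the topoisomerase that untangles sister chromatids, had 1566, 1354, 2189 and 2114 in ASC, 138, 377, 244 and 202 in QSC, and 65.2, 96.9, 98.7 and 55.3 in NMC, so that ASC exceeded QSC by 2.89 ± 0.26 (limma adjusted p = 3.85e-07) and QSC exceeded NMC by 1.46 ± 0.27 (adjusted p = 0.000458). Mki67, the proliferation antigen that coats mitotic chromosomes, had 1201 to 1852 in ASC, 178, 332, 456 and 390.4 in QSC, and 97.1, 204, 215 and 124 in NMC. For Top2a no groups overlapped, and for Mki67 QSC 1 fell within the NMC range (1.16, adjusted p = 0.000508).

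All 6 cytokinesis genes were called higher in both comparisons, with medians of 2.98 for ASC over QSC and 0.82 for QSC over NMC. Kif20a, a motor of the central spindle, had 353, 439, 759 and 516 in ASC, 17.1, 26.8, 44.0 and 33.7 in QSC, and 10.2, 17.6, 6.45 and 14.3 in NMC. ASC exceeded QSC by 3.54 ± 0.19 (limma adjusted p = 3.15e-09), and QSC exceeded NMC by 0.85 ± 0.19 (adjusted p = 0.00238) with 1 overlapping array on each side. Prc1, which bundles the midzone microtubules, had 1245 to 1930.0 in ASC, 151, 158, 178 and 129 in QSC, and 98.7, 88.2, 86.9 and 63.98 in NMC. Kif23 is the motor of centralspindlin, and it had 659 to 917 in ASC, 80.9, 149.8, 116 and 71.7 in QSC, and 33.8, 39.98, 55.7 and 37.6 in NMC. Prc1 and Kif23 were apart in all groups, by 3.23 and 2.73 for ASC over QSC and by 0.79 and 1.07 for QSC over NMC. Racgap1, the other centralspindlin subunit, had 265 to 373 in ASC, 88.6, 89.0, 47.6 and 46.9 in QSC, and 47.1, 19.7, 28.1 and 24.7 in NMC. Ect2, the exchange factor that activates RhoA at the cleavage plane, had 214 to 676 in ASC, 40.1, 75.7, 41.6 and 52.3 in QSC, and 25.7, 20.4, 20.8 and 11.3 in NMC. Anln, a scaffold of the contractile ring, had 1218 to 1568 in ASC, 90.4, 149.9, 146 and 143 in QSC, and 83.5, 66.0, 63.9 and 49.4 in NMC. Racgap1 overlapped between the fresh groups at 1 array each, and Ect2 and Anln did not overlap.

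Across the 63 member probe sets that passed the filter, 59 were higher in ASC than in QSC, 2 were lower and 2 were not called, against 30.7% and 37.6% of all 12072 probe sets tested. Between the fresh groups 45 were higher in QSC, 1 was lower and 17 were not called, against 27.4% and 24%. Of the 16 genes with more than 1 tested probe set, 4 had probe sets whose ASC over QSC changes differed by more than 1 on the log2 scale. Those of Cks1b gave 1.72 and 3.28, and the second of them, at 1442 to 1997 in ASC, 86.3 to 209.6 in QSC and 213 to 300.3 in NMC, was lower in QSC than in NMC (-0.67, limma adjusted p = 0.0121 over all probe sets). Those of Hmmr gave 3.90, 2.50 and 1.42, those of Kif2c 4.05 and 2.98, and those of Pttg1 the 3 values above. The 3 probe sets of Smc4 gave 0.82, 0.91 and 0.77, of which the last did not pass (adjusted p = 0.139). In QSC over NMC, 9 of the 16 genes had probe sets that differed in call. For 7 of them the brightest probe set was called higher in QSC and a dimmer one was not called: this was so for Tpx2 (0.37, limma adjusted p = 0.245), Kif2c (0.32, 0.371), Kif22 (0.45, 0.192), Aurkb (0.51, 0.0694), Cdc20 (0.24, 0.319), Cdca5 (0.48, 0.0564) and Prc1 (0.39, 0.174), each the log2 change and its adjusted p. The other 2 were Cks1b, named above, and Hmmr, of which 1 dimmer probe set was higher in QSC (0.56, adjusted p = 0.0196). Probe sets of Kif22 (1.47, 0.45 and 0.80) and Cdc20 (1.31, 0.24 and 0.88) spread over more than 1 in this comparison. In ASC over NMC no call differed, and 6 genes spread over more than 1, among them Cdc20 (3.25 to 4.72) and Cdca5 (2.91 and 4.42) besides the 4 named for ASC over QSC. With no filter on signal, 44 of the 45 genes were higher in ASC, Cdc25c, Cenpe and Cenph included, and 1 was lower, against 21.2% and 33.6% of all 12393 genes. In the same unfiltered fit 34 of the 45 were higher in QSC than in NMC and 0 lower (19.7% and 18.7% of all genes), and 44 were higher in ASC than in NMC and 1 lower (22.7% and 30.2%).

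Between the fresh groups, 35 of the 42 tested genes were higher in QSC than in NMC, 0 were lower and 7 did not pass, at an adjusted p under 0.05 in limma. Of the 35, 27 had a QSC mean of at least the filter value of 47.028, and the other 8 had a QSC mean under it. The filter used the ASC arrays too, so a QSC mean above that value does not show that a gene passed without ASC. Among all genes tested, 26.4% were called higher in QSC and 26.6% lower. The step was smaller than the one to ASC: the median member was 0.84 higher on the log2 scale, against 0.03 for all genes tested, and 11 members were higher by at least 2-fold, against 8.37% of all genes tested. The member median was 0.476 with a pseudocount of 1/4 of the trimmed mean and 0.485 without scaling. The 7 that did not pass were Cks1b, Aurka, Hmmr, Birc5, Ube2c, Pttg1 and Smc2. This comparison and the one with ASC share the QSC arrays. The largest changes were those of Bub1b (2.11), Cks2 (2.02), Smc4 (1.64), Kif22 (1.47), Top2a (1.46), Cdc25b (1.33) and Cdc20 (1.31). All 4 QSC arrays lay above all 4 NMC arrays for 26 members, against 18.7% of all genes tested, below them for 0, against 21%, and the other 16 overlapped. The NMC mean was 43.7% of the QSC mean in the median member.

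This comparison lies at low signal, since 24 of the 42 genes had an NMC mean and 8 a QSC mean under 47.028, the value of the filter. Of the 35 calls, 8 had a QSC mean under that value: Bub1, Ndc80, Ttk, Kif20a, Nek2, Kif2c, Aurkb and Kif11. The filter used the mean over all 12 arrays, and the NMC means of these 8 were lower still. These 8 genes entered the comparison of the fresh groups only through their ASC signal. Of the other calls, so did Kif4, Nuf2 and Ect2, whose mean over the fresh arrays together was also under the filter value. Their QSC means were 54.7, 53.6 and 52.5, and their NMC means 23.4, 24.9 and 19.6. The calls between the fresh groups also depend on the scaling. On the deposited values without scaling, where the median of all genes shifted to -0.32 and 9.7% of all genes were called higher and 37.8% lower, 18 of 43 members were higher in QSC and 2 were lower. With 1 array left out at a time, 31 to 36 members were called. Nek2 lost its call without QSC 2, QSC 3, QSC 4, NMC 1, NMC 2 or NMC 4 (0.47 to 0.52), and Ect2 without QSC 3, QSC 4 or NMC 1 (0.63 to 0.74). Kif4 lost it without QSC 3, NMC 2 or NMC 4 (0.69 to 0.73), Incenp without QSC 3 or NMC 1 (0.51 and 0.57) and Tpx2 without NMC 1 (0.52). Smc2 gained a call without QSC 1 (0.61), and Ube2c without QSC 3 (0.48) or NMC 3 (0.46). QSC 2 was the highest QSC array for 20 of the 42 members and QSC 1 the lowest for 23. The 7 leukocyte markers summed to 518, 370, 128 and 165 in QSC and to 211 to 364 in NMC, so QSC 3 and QSC 4 lay below the NMC range and QSC 1 and QSC 2 above it. Of these markers only Laptm5 and Lyz2 passed the filter on signal, and neither was called between QSC and NMC. The defining marker Ptprc averaged 27.8 in QSC and 27.5 in NMC, and the part of such cells in the result was not tested.

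**Figure D3:**
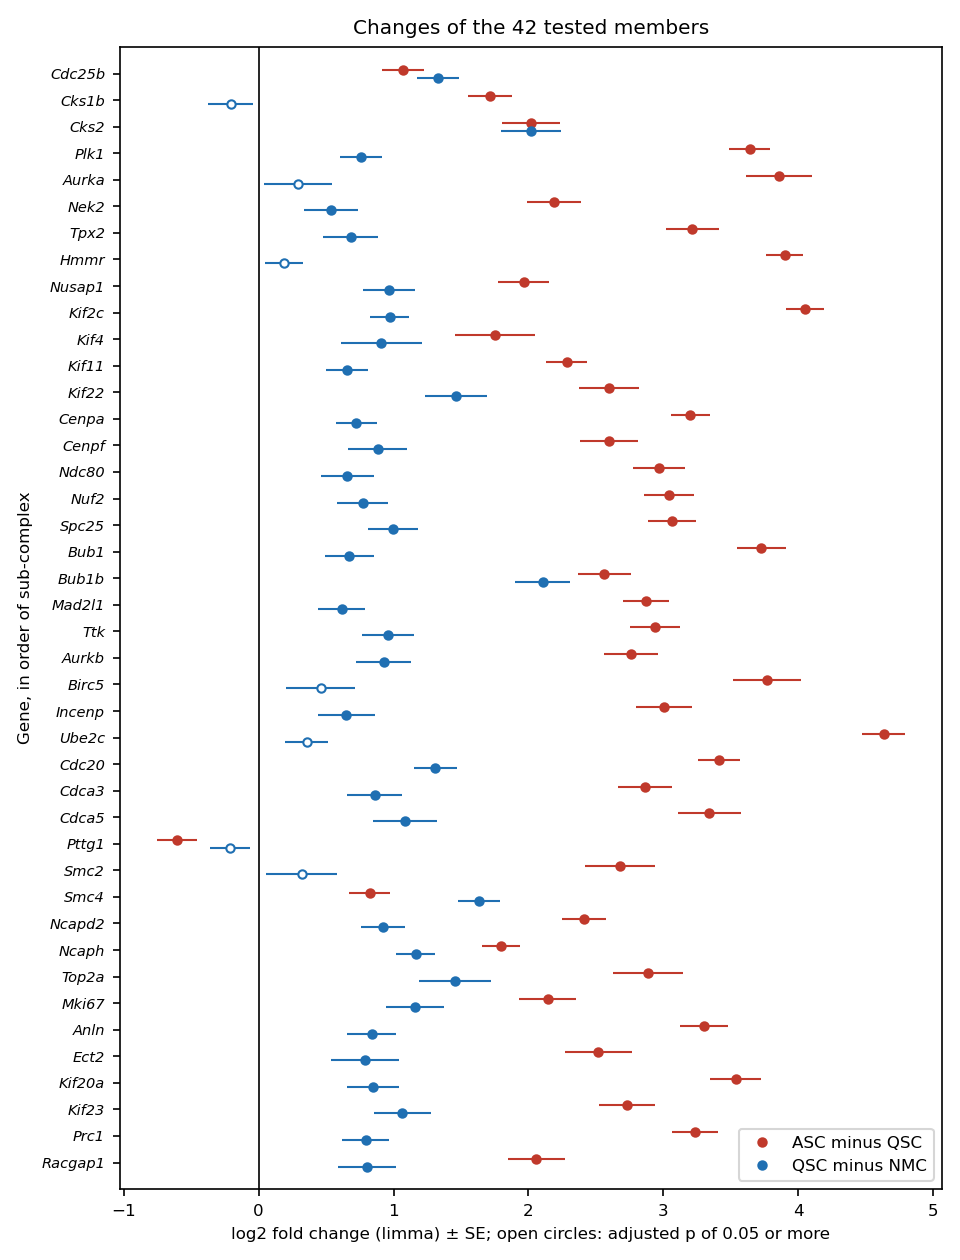
log2 fold changes of the 42 tested members (limma) with standard errors, for ASC minus QSC in red and QSC minus NMC in blue, where open circles did not reach an adjusted p under 0.05. The red points lie between -0.61 and 4.63, the blue points between -0.21 and 2.11, and in Cdc25b, Cks2, Bub1b, Smc4 and Pttg1 the blue point comes within 0.5 of the red one or passes it.

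**Figure D4:**
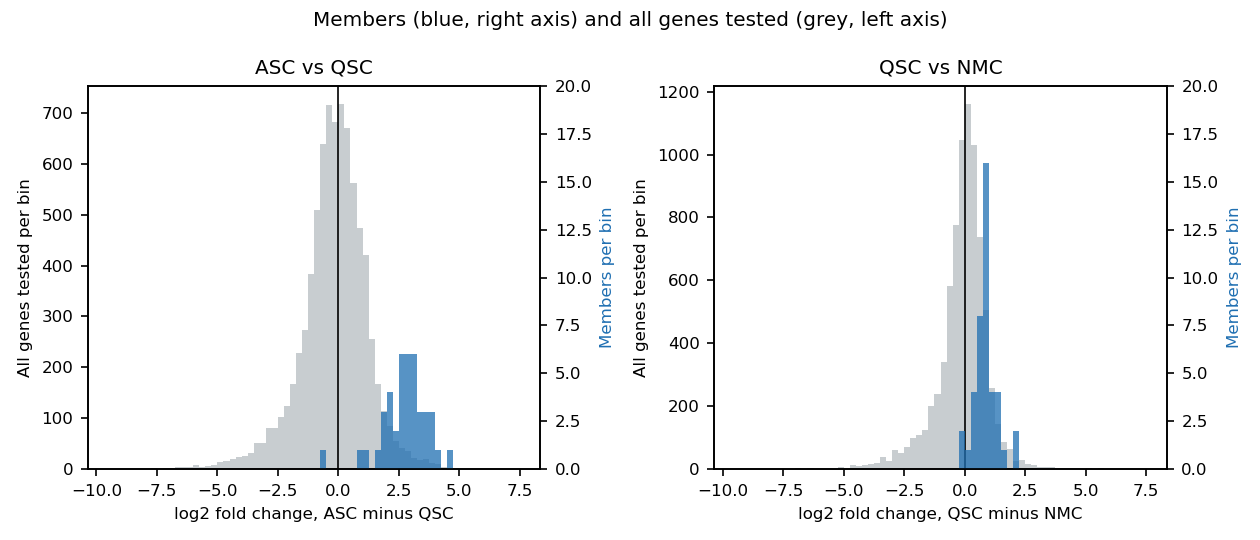
Number of genes per bin of 0.25 in log2 fold change, with all 7960 genes tested in grey on the left axis and the 42 members in blue on the right axis, which has another scale. The members sit in the right flank of the grey distribution for ASC vs QSC, with a median of 2.87, and just right of its centre for QSC vs NMC, with a median of 0.84.

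ASC set against NMC, which shares its arrays with both comparisons above, had 41 members higher and 1 lower, against 34.1% and 38.3% of all genes tested, with a median of 3.81. Without ASC 1 and ASC 2 the counts were the same, against 31.5% and 38.2% of all genes tested. By at least 2-fold 41 were then higher, against 19.1%, and 41 lay higher in every array, against 35.1%. The median was then 3.92, against -0.12 for all genes tested. With all 4 ASC arrays kept, they lay wholly above those of NMC for these 41 genes and wholly below for Pttg1, against 29% and 32.6% of all genes tested. By at least 2-fold 41 were higher with all arrays, against 18.5%. The largest changes were 5.02 for Kif2c, 4.99 for Ube2c, 4.72 for Cdc20 and 4.67 for Bub1b. The NMC mean was 5.11% of the ASC mean in the median member. For 26 of the 42 genes the levels thus ran from ASC over QSC to NMC with no overlap between neighbours, for 15 ASC stood above a pair of overlapping fresh groups, and for Pttg1 ASC stood below such a pair. Of all genes tested, all ASC arrays lay above all QSC arrays for 24.8%, and all QSC above all NMC arrays for 18.7%. The share of all genes with both steps was not counted, so these patterns have no background of their own.

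Both labelling kits were used in each group, so the ASC change could be read within each kit. The median member change was 2.83 on the 4 small-sample arrays and 3.02 on the 4 two-cycle arrays. In a limma fit with an interaction of kit and group, 0 members changed more with the small-sample kit and 2 changed more with the two-cycle kit, against 5.44% and 1.88% of all genes tested. Aurka had 714 and 641 in ASC and 53.5 and 64.8 in QSC with the small-sample kit, and 1115 and 1116 in ASC and 32.4 and 39.4 in QSC with the two-cycle kit. Racgap1 had 265 and 285 in ASC and 88.6 and 89.0 in QSC with the small-sample kit, and 366 and 373 in ASC and 47.6 and 46.9 in QSC with the two-cycle kit. The difference of the changes, small-sample minus two-cycle, was -1.25 ± 0.32 for Aurka (SE, adjusted p = 0.0397) and -1.15 ± 0.23 for Racgap1 (adjusted p = 0.0168). The other tested probe set of Racgap1 did not show this split. It had 383 and 455 in ASC and 28.6 and 45.7 in QSC with the small-sample kit. With the two-cycle kit it had 426 and 459 in ASC and 42.9 and 40.3 in QSC. Its ASC over QSC change was 3.05, against 2.06 for the probe set used, and the interaction was not fitted to it. Ect2 had the largest difference in the opposite direction, at 676 and 522 in ASC with the small-sample kit and 214 and 222 in ASC with the two-cycle kit, and it did not pass (1.19 ± 0.36, adjusted p = 0.0663). At an unadjusted p under 0.05 the counts were 2 and 3 of the 42, against 16.3% and 8.77% of all genes tested. At that threshold alone the members' share was not above that of all genes in either direction. By sign, 29 of the 42 members and 3555 of the 7960 genes tested changed more with the two-cycle kit. The median difference, small-sample minus two-cycle, was -0.11 for the members and 0.08 for all genes tested. The calls rest on few arrays: with 1 array left out at a time, 0 to 2 members changed more with the small-sample kit and 0 to 3 with the two-cycle kit, and the two-cycle count was 0 without ASC 3, ASC 4 or QSC 3. The kits also separate the ASC arrays with high and low myocyte markers, so the kit and the culture cannot be told apart here.

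**Figure D5:**
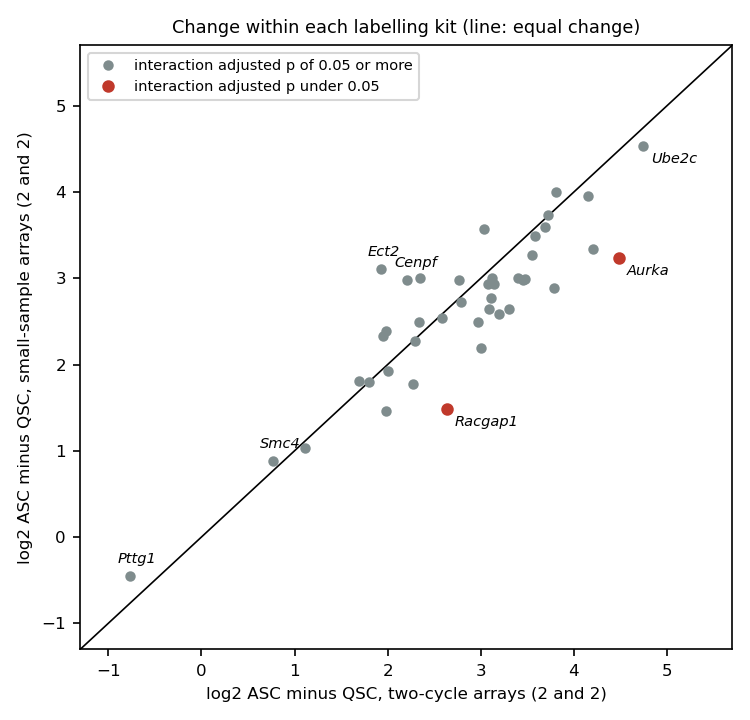
log2 ASC minus QSC of the 42 tested members within the small-sample kit (vertical axis) and the two-cycle kit (horizontal axis), 2 arrays per group and kit, with the line of equal change and the genes called for the interaction in red. The points follow the line from Pttg1 (-0.45 and -0.77) to Ube2c (4.53 and 4.74), and Aurka (3.23 and 4.48) and Racgap1 (1.48 and 2.63) lie below it.

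Another 129 genes of mitosis and chromosome segregation were listed for comparison, of which 95 were on the array and 87 were tested. In ASC, 57 were higher than in QSC, 11 were lower and 19 did not pass, with a median of 1.01. Of all genes tested, 31.8% were higher and 38.2% lower. The largest increases were Cdk1, the mitotic kinase, with 2070.1, 1785, 2752 and 2402.5 in ASC and 108, 145, 88.4 and 142 in QSC (4.07 ± 0.21), and then Cep55 (3.75), Gtse1 (3.74) and Ncapg (3.59). The largest decreases were Mapre2 (-2.40), a microtubule end-binding protein, Nipbl (-1.52), the cohesin loader, Clasp2 (-1.26) and Ensa (-1.21). Between the fresh groups 35 of the 87 were higher in QSC, 7 were lower and 45 did not pass, with a median of 0.40. Here 26.4% of all genes tested were higher and 26.6% lower. Cenpq, an inner kinetochore subunit, had 304, 378, 300.4 and 250.1 in QSC and 40.8, 58.9, 46.1 and 43.5 in NMC, a difference of 2.34 ± 0.16 (limma adjusted p = 4.78e-08), while its ASC arrays, at 350.1 to 446, exceeded QSC by 0.29 (adjusted p = 0.106). It was followed by Cdca7 (1.61), Ckap2 (1.39) and Rcc1 (1.11), and the largest decreases were Tacc2 (-1.09), Kif2a (-0.87), Kif3b (-0.83) and Cdc26 (-0.58). In ASC against NMC 60 of the 87 were higher and 10 lower, against 34.1% and 38.3% of all genes tested. Without ASC 1 and ASC 2 the counts were 53 higher and 10 lower against QSC, and 55 and 9 against NMC. The shares of all genes tested were then 28.3% and 36.1% against QSC, and 31.5% and 38.2% against NMC.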

How the data were processed

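RNA from 12 samples was hybridised to 1 array each, 4 per group, and both labelling kits were used in each group per the labels. The authors deposited 1 linear intensity per probe set and array, made with MAS5 per the submitters' processing notes, with no version or settings given in the sources used here. Without detection calls a single gene has no known background limit. Precision is limited by the 4 arrays per group. No 2 arrays were identical.

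Each array was scaled to a mean, trimmed by 2% at each tail, of 235.14. Values were turned into log2(signal + 14.696), the pseudocount being 1/16 of that mean. Symbols were checked by Entrez ID for 20351 of 20380 probe sets with 1 gene, and no member was listed under an older symbol. The filter kept genes whose signal averaged 47.028 (0.2 of that mean) or more over the 12 arrays. They were fitted across the 12 arrays with limma 3.58.1 (lmFit, eBayes; R 4.3.3), with terms for group and kit and 8 residual degrees of freedom. Calls are at a Benjamini-Hochberg adjusted p under 0.05 over all 7960 genes, and probe sets were adjusted over all 12072. The fit was tested on simulated data. Samples with the same number were not treated as pairs, since the deviations of same-numbered arrays from their group means correlated between -0.37 and 0.39. With the kit also taken out the correlations lay between -0.51 and 0.29, and those of ASC with QSC were all negative (-0.23 to -0.51).

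Signal on each array is given for the member with the largest ASC change of each sub-complex, for members not higher in ASC than in QSC and for members called between QSC and NMC; probe sets are named where the ASC over QSC change differs by more than 1 (log2) or a call differs, and of the other mitotic genes up to 4 per direction. Other names were chosen after their values were seen. The members and lists were chosen with earlier results of these data known. Alternatives were the kit term left out, each kit alone, other pseudocounts, filters and scalings, averaged probe sets, weighted arrays, a variance trend, only the groups compared, a replicate block and each array left out. The fit without ASC 1 and ASC 2 was added after seeing the data. Promoters are RefSeq's, and figures were drawn with Python 3.11.15 and matplotlib 3.10.9.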

Additional observations from a re-analysis of the deposited data

Results flagged for a closer look

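Of 126 combinations of a tested gene and a group of 4 arrays, 9 (7.14%) had 1 array far from the other 3 by the gap to its neighbour relative to the group's range; chance gives about 1 in 20. In ASC these were Bub1b on ASC 4 (600.2, low), Pttg1 on ASC 3 (2395, high) and Smc2 on ASC 2 (899, low). In QSC all 3 were on QSC 1: Smc2 (60.6, low), Anln (90.4, low) and Cenpa (111, high). In NMC they were Cdc25b (151, high) and Ncaph (90.6, high) on NMC 1, the only NMC array of the small-sample kit, and Spc25 (16.97, low) on NMC 4.

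For 2 genes the ASC minus QSC change differed between the labelling kits by the interaction term of the limma fit. The difference, small-sample minus two-cycle, was -1.25 for Aurka and -1.15 for Racgap1. For Racgap1 this was read from 1 probe set, and the signals of its other tested probe set overlapped between the kits.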

How the results depend on the processing

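The 41 genes higher in ASC than in QSC, and the 41 higher in ASC than in NMC, kept direction and call under every alternative in which they were tested, arrays left out in turn included; Pttg1 kept both except for ASC over QSC on unscaled values, with median centring and on the small-sample arrays, where 0 members were lower. Leaving out 1 array gave 31 to 36 members higher in QSC than in NMC. Without scaling 18 were higher and 2 lower, and Aurka (-0.0227), Hmmr (-0.16) and Smc2 (-0.0676) turned direction. That setting moved the median of all genes to 0.14 for ASC over QSC and -0.32 for QSC over NMC, and gave 12 other mitotic genes higher and 17 lower in QSC, 26 member probe sets higher and 4 lower in QSC, 1 lower in ASC than in QSC, and 1 and 0 members with a larger change in the small-sample and the two-cycle kit. Median centring moved the median of all genes to 0.30 for ASC over QSC, where 45.9% were higher and 25% lower, and to 0.36 for ASC over NMC, where 47.3% were higher and 27.6% lower. It left 7 other mitotic genes lower in ASC than in QSC, 3 lower in ASC than in NMC and 1 member probe set lower in ASC than in QSC. Quantile normalization gave 1 member and 2 probe sets lower in QSC than in NMC. Averaging the probe sets of each gene gave 1 member and 4 other mitotic genes lower in QSC. The small-sample kit alone left 7 other mitotic genes and 1 probe set lower in ASC than in QSC. Lower in QSC than in NMC were 0 probe sets with no term for the kit, 2 on the two-cycle arrays and 2 with array weights, and 1 to 2 with an array left out. No filter on signal gave 4 probe sets lower in ASC than in QSC, and the stricter filter 1. Members with a larger change in the two-cycle kit numbered 1 with no filter, with a pseudocount of 1/64, with quantile normalization and with the mean of probe sets, and 0 to 3 with an array left out; those larger in the small-sample kit numbered 1 with a pseudocount of 1/4 and 0 to 2 with an array left out. The causes were not tested. Numbers shared between groups were not treated as pairs. With the replicate block 21 other mitotic genes were higher in QSC than in NMC in place of 35, against 20.5% of all genes tested. No other count moved by over 1.5 times. Signals under the filter value, and changes between the fresh groups near the pseudocount, are limited by the lack of detection calls.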
